A study of Homo sapiens with 20 samples.

Results

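The NF-κB inflammatory target genes examined here were 10 of the 20007 protein-coding genes of the annotation. They were NFKB2, RELB, NFKBIA, TNFAIP3, BIRC3, CXCL1, CXCL2, CXCL3, CXCL8 and ICAM1, a list by name whose rule uses no measured value. For each gene, all H3K27ac peaks and all super-enhancers (SEs, clusters of enhancers joined by distance) were collected that overlapped its body or the 10 kb on either side of it in hg38. H3K27ac, acetylation of histone H3 at lysine 27, marks active promoters and enhancers. It was measured by ChIP-seq in HCT-116, a human colorectal cancer cell line, in 16 libraries. Cells were wild type (WT) or lacked FBXW7 (KO), which encodes the substrate receptor of a ubiquitin ligase. The KO cells came from a commercial supplier, and the labels and the study's methods do not say whether they are a single clone. Cells of both genotypes were transfected for 48 h with enzymatically prepared small interfering RNAs, either control (esiCT) or against the deacetylase HDAC4 (esiHDAC4). During the last 24 h they were left untreated (UNT) or received 50 µM of the platinum drug oxaliplatin (OXPT). The 8 groups thus formed were WT esiCT UNT, WT esiCT OXPT, WT esiHDAC4 UNT, WT esiHDAC4 OXPT and the same for KO, each with 2 libraries that carry the letters A and B. The study's methods call the letters biological replicates, while the labels mention pooled experiments without tying them to the letters, so p-values measure only the spread between these libraries.

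NF-κB is a family of dimeric transcription factors that inhibitor proteins hold in the cytoplasm of resting cells. Cytokines, microbial products and DNA damage activate a kinase complex that marks the inhibitor for destruction, after which the dimer enters the nucleus and binds κB sites in promoters and enhancers. Its targets include its own inhibitors, survival factors, neutrophil-attracting chemokines and adhesion molecules, and in colon epithelium the pathway links inflammation with tumour growth.

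The κB sites before the start sites of the genes are shown first, because they are the sequences through which the family is known to act and because the peaks described later are read against them. The bases before the RefSeq start sites (GRCh38.p14) were available for 9 of the 10 genes, RELB being the exception. A pair of patterns was searched on both strands in the 250 bases before each start. The κB consensus, the general binding motif of the family, was held by 7 of the 9 genes and by 9.96% of all 35116 promoters. The 9-letter core GGAATTTCC, which on the other strand reads GGAAATTCC, was held by 6 of the 9 genes and by 0.413% of all promoters. The core lies inside a consensus match in CXCL1, CXCL2, CXCL3 and NFKBIA, so these counts overlap. A gene counted if any of its RefSeq starts had a match, and NFKB2 has 3, while the shares are over single promoters. The genes were listed as targets of the family, so their many matches are a description and no test. A match is a run of letters and no evidence of binding. Positions are counted back from the RefSeq start, and that of CXCL3 lies 118 bp inside the transcript annotated by GENCODE. Each line gives 30 bases on the strand of the gene, 5′ to 3′, with the match in capitals.
CXCL1, chr4:73869304-73869333, match from -79 to -70: ctggaactccGGGAATTTCCctggcccggg
CXCL2, chr4:74099254-74099283, match from -78 to -69: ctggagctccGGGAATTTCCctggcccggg
CXCL3, chr4:74038749-74038778, match from -79 to -70: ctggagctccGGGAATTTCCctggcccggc
CXCL8, chr4:73740467-73740496, match from -91 to -83: ttgcaaatcgtGGAATTTCCtctgacataa
NFKBIA, chr14:35404811-35404840, match from -81 to -72: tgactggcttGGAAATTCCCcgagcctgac
ICAM1, chr19:10270923-10270952, match from -186 to -178: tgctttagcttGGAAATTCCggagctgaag
TNFAIP3, chr6:137867194-137867223, match from -55 to -46: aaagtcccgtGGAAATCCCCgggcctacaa
BIRC3, chr11:102317275-102317304, match from -199 to -190: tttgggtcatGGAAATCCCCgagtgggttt
NFKB2, second RefSeq start, chr10:102394461-102394490, match from -107 to -98: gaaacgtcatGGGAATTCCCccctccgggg

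The 3 neighbouring chemokine genes CXCL1, CXCL2 and CXCL3 carried the same match at nearly the same distance from their starts. CXCL8 and ICAM1 held the core without the consensus. The 150 bases before the starts of NFKBIA and CXCL1 are given in full, since NFKBIA was the member with the most frequent start-site peak and CXCL1 a member with a rare one, and their RefSeq and GENCODE starts coincide.
NFKBIA, chr14:35404750-35404899, minus strand: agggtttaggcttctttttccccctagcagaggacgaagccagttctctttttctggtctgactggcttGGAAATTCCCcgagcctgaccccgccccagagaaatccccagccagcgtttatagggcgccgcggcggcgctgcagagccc
CXCL1, chr4:73869243-73869392, plus strand: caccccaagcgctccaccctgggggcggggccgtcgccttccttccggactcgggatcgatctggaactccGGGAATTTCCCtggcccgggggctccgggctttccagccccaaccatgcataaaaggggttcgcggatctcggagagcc
A called peak lay over the printed match in 7 of 16 libraries at NFKBIA, in 2 at CXCL2, CXCL8, ICAM1 and BIRC3, in 1 at CXCL1 and CXCL3, and in 0 at TNFAIP3 and NFKB2. Further matches, not printed, lay under a peak in 3 libraries at the third RefSeq start of NFKB2 and in 0 at BIRC3, from -135 to -126. In the other libraries with a start-site peak at these genes no called peak reached the printed match.

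The libraries differed in the length of their lists. Their lists held 1752 to 27927 peaks and 66 to 1265 SEs. The low end of the background behind peaks, read from the deposited fold and p-value, was 1.02 to 3.07 reads by library. At that background a call needed a fold of 2.88 to 3.96. Over a higher background peaks were called at lower folds, down to 2.37 in the members' windows. The folds needed at low background were 3.49 to 3.96 in the 4 KO libraries of letter B and 2.88 to 3.57 in the other 12, so they overlapped. In list length these 4 libraries stood apart, with 1752 to 8216 peaks against 10562 to 27927. Genotype and list length therefore cannot be told apart within letter B, and the genotype differences in peak number below are given for both letters. A missing call in a short list is no measurement of absent acetylation, and why the lists differed in length was not tested. FBXW7 had a peak in its window in 7 of 8 WT and 3 of 8 KO libraries and HDAC4 in 8 of 8 libraries of both silencing arms, and acetylation at either locus checks neither the knockout nor the silencing. Of 8 markers of colon epithelium, 5 had a peak in at least 14 libraries, and KRT20 had none and VIL1 had one in 1 library. None of the 5 fibroblast and 4 endothelial markers reached 14 libraries. COL1A1 and CDH5 had a peak in 12, PECAM1 in 11 and VWF in 10. At the start sites of the fibroblast and endothelial markers only COL1A1 had a peak, in 3 libraries. The median number of libraries with a peak was 8 for all protein-coding genes. It was 14.5 for epithelial, 10.5 for endothelial, 3 for fibroblast and 2.5 for leukocyte markers. The leukocyte markers PTPRC and CD3E had a peak in 2 and 0 libraries, and neither had one at its start site.

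No SE lay in the window of any of the 10 genes in any library, that is in 0 of 160 gene and library combinations. Over all protein-coding genes, 8.08% had an SE in their window in at least 1 library. Peaks were called in 78 of the 160 combinations and at the start site, within 1 kb of it, in 46. The windows held 141 peaks in all, with a median summit fold of 4.03, between 2.37 and 6.93, and a median of 17 reads at the summit, between 10 and 30. The median fold of all 271550 peaks in the lists was 4.04. A peak was present in at least 1 library for 9 of the 10 genes, against 79.1% of all genes, and at the start site also for 9, against 57.7% of all genes. None of the 10 had a peak in all 16 libraries, against 2.42% of all genes. The median number of libraries with a peak in the window was 8 for the 10 genes and 8 for all genes, and with a start-site peak it was 4 for the 10 genes and 2 for all genes.

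**Figure D1:**
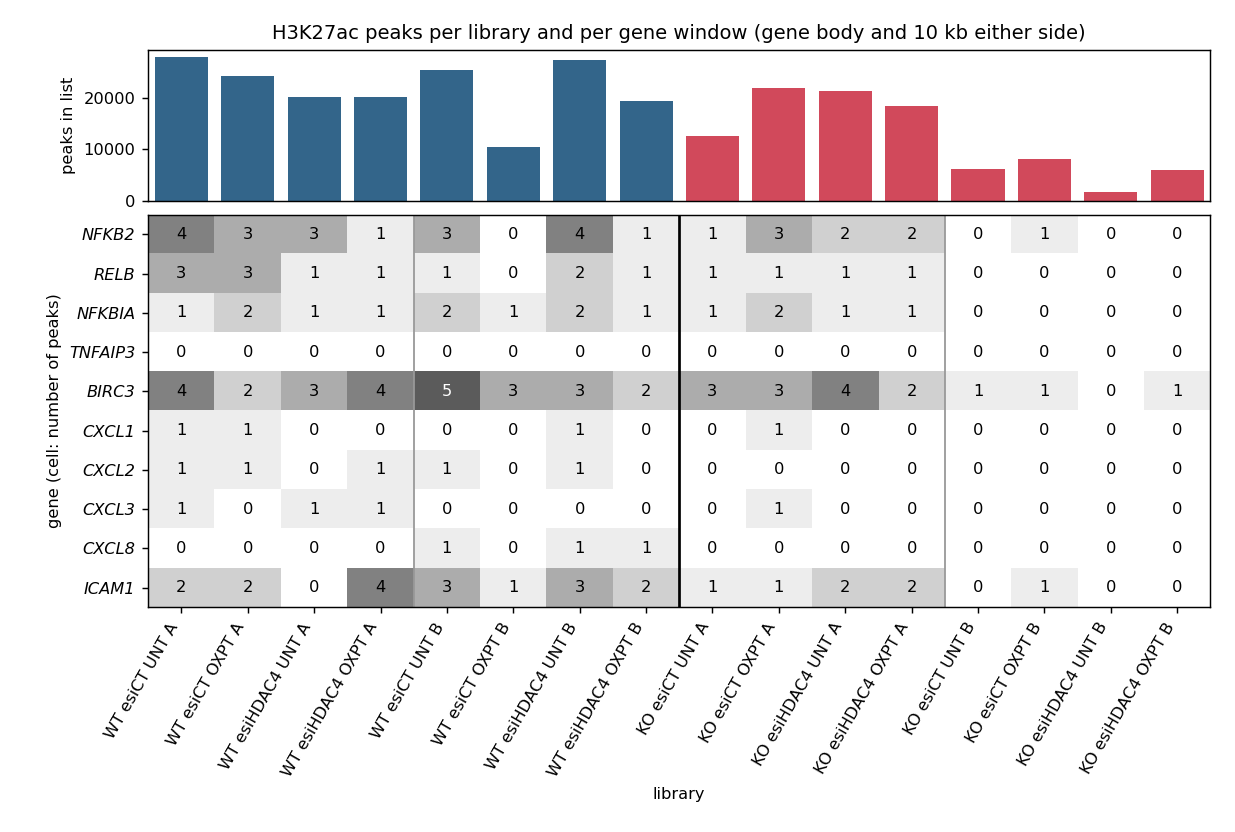
Peaks in the whole list (bars, top) and in the window of each gene (cells, bottom) for the 16 libraries, with WT libraries to the left of the black line, KO libraries to its right, and letter A before letter B within each. TNFAIP3 is at 0 throughout, BIRC3 reaches 5, and the last 4 columns, KO letter B, hold 5 peaks in all.

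NFKBIA encodes the inhibitor IκBα and is itself an early target of the pathway. It lies on chromosome 14 from 35401079 to 35404749 on the minus strand. All of its peaks fell into 1 merged region, 35403108 to 35405274, that covered its start site and the first part of the gene. The region was called in 8 of 8 WT libraries, in 4 of 4 KO libraries of letter A and in 0 of 4 KO libraries of letter B. The strongest peak that reached within 1 kb of the start site had a fold in WT letter A of 6.93 in esiCT UNT, 4.38 in esiCT OXPT, 4.59 in esiHDAC4 UNT and 3.71 in esiHDAC4 OXPT. In KO letter A the corresponding folds were 5.36, 4.65, 4.95 and 4.29. In WT letter B they were 4.95, 3.60, 5.29 and 3.91. The genotypes overlapped in letter A. The OXPT library had the lower fold in each of the 6 pairs of libraries that differ only in treatment, and so did the median fold of the whole list in 5 of these pairs. Of the 484 genes tested for fold, 90 had exact permutation p under 0.05 for OXPT, all lower, with a median log2 difference of -0.16. At NFKBIA the summits were not at one place. They lay 1221 bp inside the gene in WT esiCT OXPT A, 1317 bp in WT esiHDAC4 UNT A, 1586 bp in WT esiCT OXPT B and 1226 bp in WT esiHDAC4 UNT B, and within 466 bp of the start in the other 8 libraries, so each of the 4 WT pairs sets different summits side by side. These folds are relative to the background of each list, and NFKBIA could not enter the test of fold, which needs a peak in every library.

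TNFAIP3 encodes A20, a ubiquitin-editing enzyme that switches the pathway off. It lies on chromosome 6 from 137867214 to 137883314, and no peak was called in its window in any of the 16 libraries. The nearest peak was 12.8 kb from the gene in the closest library and 152 kb away in the median library. The nearest SE was at least 572 kb away. It was the only member without a peak and entered no test.

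BIRC3 encodes cIAP2, a ubiquitin ligase that relays signals from TNF receptors and restrains cell death. It lies on chromosome 11 from 102317484 to 102339403, and it had the most peaks of the 10 genes, 41 in 15 libraries. The WT libraries of letter A held 4, 2, 3 and 4 peaks, in the order esiCT UNT, esiCT OXPT, esiHDAC4 UNT, esiHDAC4 OXPT, and the WT libraries of letter B 5, 3, 3 and 2. The KO libraries held 3, 3, 4 and 2 in letter A and 1, 1, 0 and 1 in letter B. The genotypes thus overlapped in letter A and did not in letter B. These peaks fell into 4 regions. The most frequent, 102345430 to 102348704, was called in 14 libraries and lies at the start site of BIRC2, the neighbouring gene for cIAP1, so that it cannot be assigned to BIRC3 alone. An upstream element centred at -4443 bp from the start of BIRC3, 102312427 to 102313655, overlapped no coding gene and was called in 5 WT and 3 KO libraries. The region just before the start site, 102316197 to 102317344, was called in 6 of 8 WT libraries, 3 of each letter, with folds of 2.90 to 6.49 over all libraries, and in 1 of 8 KO libraries, of letter A. Its two-sided exact permutation p for genotype was 0.0469, adjusted p = 0.344 over 20090 regions. A further peak just after the start, 102317578 to 102318164, was called in KO esiCT OXPT A alone.

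NFKB2 and RELB encode p100/p52 and RelB, the partners of the non-canonical pathway, and both are induced by the canonical one. NFKB2, on chromosome 10 from 102394110 to 102402524, had 28 peaks in 12 libraries. In the order used above, the WT libraries held 4, 3, 3 and 1 peaks in letter A and 3, 0, 4 and 1 in letter B, and the KO libraries 1, 3, 2 and 2 in letter A and 0, 1, 0 and 0 in letter B. The main region, 102394769 to 102396756, lies in the first part of the gene, over a later RefSeq start, and was called in 6 WT and 5 KO libraries. A region 15262 bp after the start, 102408676 to 102410069, lies in PSD and was called in 4 of 8 WT libraries, all 4 of letter A, and in 0 of 8 KO libraries. Its exact permutation p for genotype was 0.0286, adjusted p = 0.258.

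RELB, on chromosome 19 from 45001461 to 45038192, had 16 peaks in 11 libraries. The WT libraries held 3, 3, 1 and 1 peaks in letter A and 1, 0, 2 and 1 in letter B. Each KO library of letter A held 1 peak and none of letter B held any. Of the 4 merged regions of its window, 2 lie at its own start, 45001484 to 45001855 in 5 libraries and 45002372 to 45002733 in 2 libraries. The others, at the far end of RELB, lie at the start of its neighbour CLASRP and were called in 4 and 5 libraries. The start-site peaks of RELB had folds from 6.53, in WT esiCT UNT letter A, down to 3.09, the weaker of 2 peaks in WT esiHDAC4 UNT letter B.

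**Figure D2:**
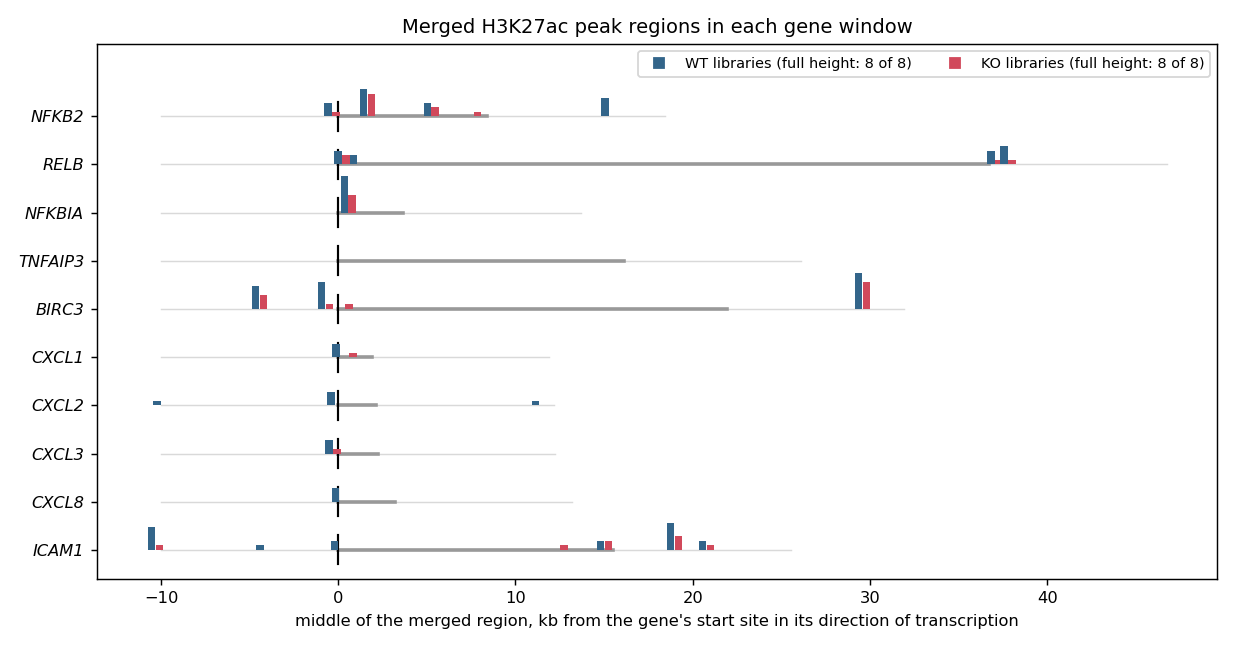
Merged peak regions in each gene window by the distance of their middle from the start site (black tick), with bar heights giving the number of WT (blue) and KO (red) libraries that called each. Grey lines are the gene bodies, the thin lines the windows, and bars of neighbouring regions can overlap. The tallest pair away from a member's own start site, at the start of BIRC2 in the BIRC3 window, was called in 8 WT and 6 KO libraries.

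CXCL1, CXCL2, CXCL3 and CXCL8 encode ligands of the chemokine receptor CXCR2, which draw neutrophils to inflamed tissue. They lie within 379 kb of chromosome 4 and had the fewest peaks of the members apart from TNFAIP3. CXCL1 (73869393 to 73871308) had 1 peak in each of 4 libraries, with folds of 4.03 in WT esiCT UNT A, 3.26 in WT esiCT OXPT A, 4.21 in WT esiHDAC4 UNT B and 3.48 in KO esiCT OXPT A. CXCL3 (74036589 to 74038807) had 1 peak in each of 4 libraries, with folds of 5.47 in WT esiCT UNT A, 5.03 in WT esiHDAC4 UNT A, 3.97 in WT esiHDAC4 OXPT A and 3.34 in KO esiCT OXPT A. KO esiCT OXPT A was the only KO library with a peak at any of the 4 genes.

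CXCL2 (74097040 to 74099196) had a start-site peak in 3 WT UNT libraries, with folds of 4.14 in esiCT A, 3.82 in esiCT B and 2.94 in esiHDAC4 B, and none in any OXPT or KO library. Its 2 other peaks lay at the edges of the window, centred at -10010 and 11347 bp from the start. CXCL8 (73740519 to 73743716) had a peak in 3 WT libraries of letter B, with folds of 5.40 in esiCT UNT, 3.85 in esiHDAC4 UNT and 3.57 in esiHDAC4 OXPT, and none in letter A. Across the stretch from CXCL8 to CXCL2 with its flanks, which holds 10 coding genes, WT libraries had 0 to 3 peaks (median 2.5) and KO libraries 0 to 2 (median 0), 6 of the 10 merged regions were called in 1 library alone, and no SE was called. The nearest SE, over MTHFD2L in WT esiCT UNT B, was 168 kb from CXCL2.

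ICAM1 encodes an adhesion molecule that binds leukocyte integrins. It lies on chromosome 19 from 10271093 to 10286615 and had 24 peaks in 12 libraries. Only 2 libraries had one at the start site, WT esiCT UNT A, with a fold of 3.09, and WT esiHDAC4 UNT B, with a fold of 3.96. The WT libraries held 2, 2, 0 and 4 peaks in letter A and 3, 1, 3 and 2 in letter B, and the KO libraries 1, 1, 2 and 2 in letter A and 0, 1, 0 and 0 in letter B. The most frequent region lay beyond the gene. It was 18982 bp after the start, from 10288960 to 10291190, at the start of its relative ICAM5, and was called in 6 WT and 3 KO libraries. A region 15026 bp after the start, 10285272 to 10286966, overlaps the last exon of ICAM1 and the start of ICAM4 and was called in 4 of 8 OXPT libraries, 2 of them WT and 2 KO, and in 0 of 8 UNT libraries. Its exact permutation p for treatment was 0.0714, adjusted p = 1.0.

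**Figure D3:**
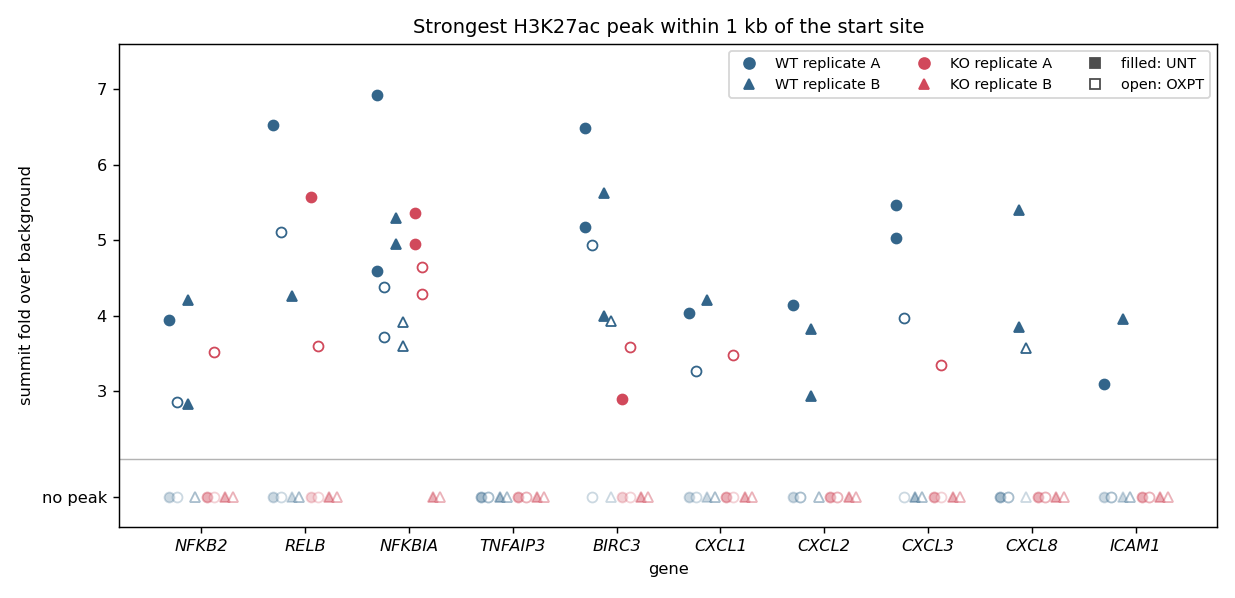
Fold over background at the summit of the strongest peak that reaches within 1 kb of each start site, one point per library, coloured by genotype, shaped by letter and filled for UNT. Libraries without such a peak stand on the bottom line. NFKBIA has 12 points between 3.60 and 6.93, TNFAIP3 has none, and no KO library of letter B has a point.

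The first comparison asked whether loss of FBXW7 changed H3K27ac at these genes. All 9 members that could be tested had fewer peaks in KO than in WT libraries, as did genes in general. The number of peaks also depends on how a region is split. The region of NFKBIA counted as 1 peak of fold 6.93 in WT esiCT UNT A. It counted as 2 peaks, the higher of fold 4.38, in WT esiCT OXPT A. On the log2(number + 1) scale the KO minus WT difference was -0.74 at ICAM1, -0.70 at RELB, -0.69 at BIRC3, -0.68 at NFKB2, -0.65 at NFKBIA, -0.62 at CXCL2, -0.38 at CXCL8 and -0.25 at CXCL1 and CXCL3. The median of these was -0.65, beside a median of -0.52 over all 13778 genes tested. The two-sided exact permutation test within letters gave p = 0.018 for BIRC3, 0.0224 for NFKBIA and 0.0306 for RELB and CXCL2. The adjusted p over all genes was 0.109, 0.116 and 0.124 (for the last pair), and 0.197 or more for the others. Thus 4 of 9 members had an unadjusted p under 0.05 with fewer peaks in KO, against 31.3% of all genes tested, and 0 passed after adjustment, against 0.0% of all genes. At least 113 genes would have to reach the smallest possible p of 4.08e-04 for one to pass, and the smallest adjusted p of any gene was 0.0639.

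BIRC3 had 2.05 ± 0.35 in WT and 1.36 ± 0.76 in KO on this scale (mean ± SD, n = 8 libraries), and NFKBIA 1.22 ± 0.30 and 0.57 ± 0.64. The difference at both lay in letter B. At NFKBIA it was 0.0 in letter A and -1.29 in letter B, at BIRC3 -0.08 and -1.29, at ICAM1 -0.08 and -1.40, and at NFKB2 -0.29 and -1.08. Over all genes the median was -0.23 in letter A and -0.79 in letter B. RELB, at -0.50 and -0.90, and CXCL2, at -0.75 and -0.50, were lower in KO in both letters. The difference at CXCL1 was -0.25 in both, at CXCL3 -0.50 in letter A and 0.0 in letter B, and at CXCL8 0.0 and -0.75. Without the 4 KO libraries of letter B, KO letter A was compared with WT of both letters, so letter and genotype were mixed. Labels were then exchanged without regard to letter. The differences were -0.07 at NFKBIA and BIRC3, -0.20 at RELB and -0.62 at CXCL2, and the median over all genes was -0.10. The exact permutation p was 0.0808 for CXCL2 and 0.612 or more for RELB, NFKBIA and BIRC3. With numbers scaled to the length of each list the median over all genes was -0.30, BIRC3 stood at -0.21 (exact permutation p = 0.601), NFKBIA at -0.56 and CXCL2 at -0.53 (each p = 0.0306) and RELB at -0.53 (p = 0.0204). None of these genes passed after adjustment. Scaling leaves a number of 0 at 0, and NFKBIA, CXCL2 and RELB had 0 peaks in the 4 KO libraries of letter B. It therefore could not offset the short lists at these genes. With 50 kb on either side of the genes, NFKBIA (-1.17, adjusted exact permutation p = 0.0382) and ICAM1 (-1.37, adjusted p = 0.0401) passed. In all 2272 genes passed there, so passing was not confined to the members, whose share was not compared with that of all genes.

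**Figure D4:**
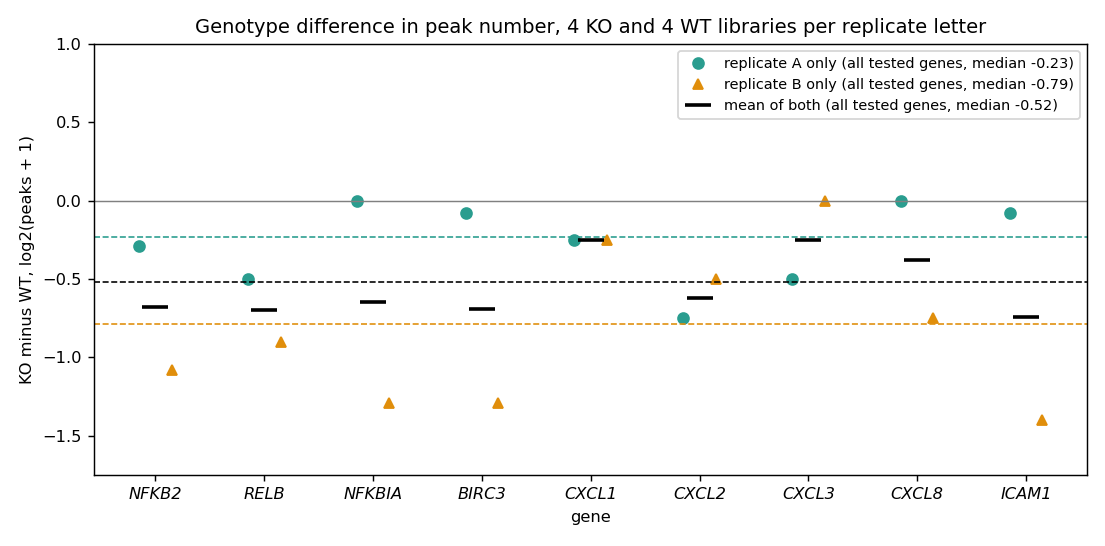
KO minus WT difference in log2(peaks + 1) at the 9 members with a peak, for replicate A (circles, 4 KO and 4 WT libraries), replicate B (triangles, 4 and 4) and the mean of both (bars). Dashed lines in the same colours are the medians of all tested genes, -0.23, -0.79 and -0.52, and NFKBIA stands at 0.0 in A and -1.29 in B.

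By presence of a peak, CXCL2 and NFKBIA had the smallest p. A peak was called at CXCL2 in 5 WT and 0 KO libraries of 8 each (exact permutation p = 0.0306, adjusted p = 0.233) and at NFKBIA in 8 and 4 (p = 0.0286, adjusted p = 0.233). Presence at the other 6 members tested had exact permutation p of 0.143 or more, BIRC3 being called too often for this test. With 2 of 8 members below 0.05, against 14.7% of all genes, no member passed after adjustment. Among merged regions, 13.6% had p under 0.05 with fewer KO libraries, and so did 3 of the 18 tested regions in the windows, those of NFKBIA, of the start site of BIRC3 and of PSD beside NFKB2. Member peaks made up 4.13 to 6.46 of every 10000 peaks in WT libraries, 4.36 to 5.54 in KO libraries of letter A and 0.0 to 3.65 in KO libraries of letter B. In KO letter B the folds needed at low background were 3.49 to 3.96. Of the 136 member peaks outside KO letter B, 26.5% had a fold below 3.49 and 46.3% a fold below 3.96. Of all peaks in those other libraries 28.0% and 48.6% did. Beyond the scaled and reduced values above, the part of list length in the genotype difference was not tested.

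**Figure D5:**
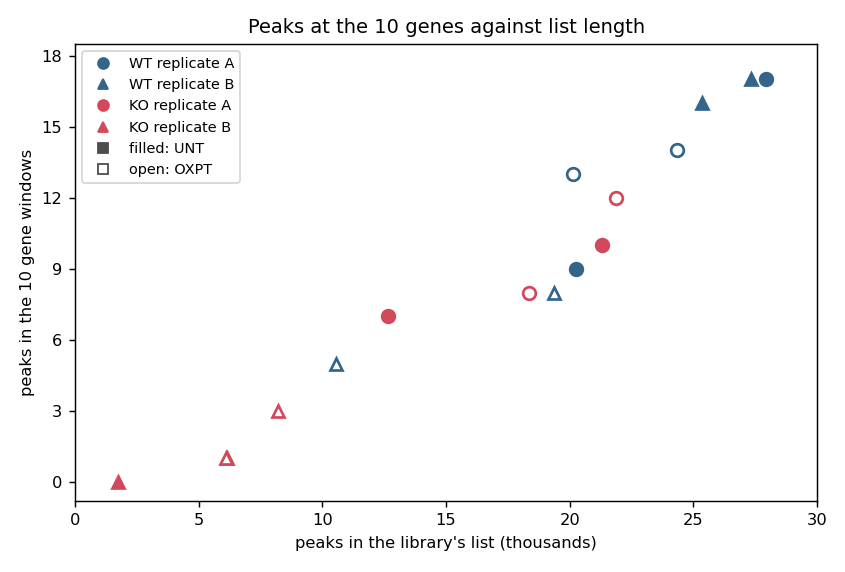
Peaks in the 10 gene windows (vertical axis) against all peaks in the list of the same library (horizontal axis, in units of 1000), coloured by genotype, shaped by letter and filled for UNT. The points rise together from 0 peaks at 1752 to 17 at 27927, and 2 KO letter B points with 1 peak each lie almost on each other.

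Across the 16 libraries Pearson's r between log2(number + 1) and the log2 length of the list was 0.88 at BIRC3, 0.84 at NFKB2 and NFKBIA, 0.81 at RELB, 0.73 at ICAM1 and 0.35 to 0.53 at the chemokine genes, as a description over libraries that share groups. The median over 13776 genes was 0.68.

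The second comparison concerned OXPT. No member passed the test. On the log2(number + 1) scale OXPT minus UNT was below 0 at 5 members, above 0 at 1 and 0 at 3, with the lowest value of -0.33 at NFKB2 and the highest of 0.24 at ICAM1. Exact permutation p was 0.446 or more and adjusted p 1.0 at each of the 9 members. Over all genes 1.37% had p under 0.05 and 0.0% passed after adjustment. NFKBIA was called in 6 of 8 OXPT and 6 of 8 UNT libraries, and NFKB2 likewise. A start-site peak at CXCL2 was called in 3 of 8 UNT and 0 of 8 OXPT libraries (exact permutation p = 0.214 for that region), and at ICAM1 in 2 and 0.

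In WT esiCT cells the 10 windows held 17 peaks without and 14 with OXPT in letter A, and 16 and 5 in letter B, while the lists went from 27927 to 24346 and from 25333 to 10562 peaks. In KO esiCT cells the windows held 7 and 12 peaks in letter A and 1 and 3 in letter B, with lists of 12639 and 21875 and of 6126 and 8216 peaks. There 4 members held more peaks with OXPT in letter A and 2 in letter B, and 0 held fewer. In WT esiCT cells 3 members held fewer in letter A and 7 in letter B, and 1 and 0 held more. In WT esiHDAC4 cells the windows held 9 peaks without and 13 with OXPT in letter A, with lists of 20234 and 20136, and 17 and 8 in letter B, with lists of 27335 and 19352. In KO esiHDAC4 cells they held 10 and 8 in letter A, with lists of 21290 and 18343, and 0 and 1 in letter B, with lists of 1752 and 6084. The members' totals thus moved in the direction of the lists in 7 of the 8 pairs and against it in WT esiHDAC4 cells of letter A. Each of these contrasts has 2 pairs and was given no test.

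The difference between the genotypes in the response was tested over 8 pairs of libraries, 4 of each genotype. It reached the smallest p that this test allows, 0.0286, at NFKB2 alone among the 9 members. There OXPT minus UNT was -1.16 ± 0.70 in WT (mean ± SD, n = 4 pairs), lower in 4 of 4 pairs, and 0.50 ± 0.58 in KO, higher in 2 and equal in 2 of 4 pairs, so the groups did not overlap. The difference was 1.66 with an adjusted exact permutation p = 0.583, and 4.9% of all genes had p under 0.05 with a median difference of 0.54. When genotype was exchanged only within letters the exact permutation p at NFKB2 was 0.0556, again the smallest possible. At the other members the difference was 0.02 to 0.50 with exact permutation p of 0.4 or more.

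The third comparison concerned HDAC4 silencing. At the 9 members esiHDAC4 minus esiCT lay between -0.25 (CXCL1) and 0.12 (CXCL8) on the log2(number + 1) scale, with exact permutation p of 0.564 or more and adjusted p of 1.0. Over all genes 0.218% had p under 0.05 and 0.0% passed after adjustment. NFKB2 and NFKBIA were each called in 6 of 8 libraries of both arms, and BIRC3 in 8 of 8 esiCT and 7 of 8 esiHDAC4 libraries. At RELB the region 45038120 to 45038878, at the start of CLASRP, was called in 4 esiCT and 0 esiHDAC4 libraries (exact permutation p = 0.0714, adjusted p = 1.0). The start site of BIRC3 showed the opposite order, with its region called in 2 esiCT and 5 esiHDAC4 libraries (exact permutation p = 0.329). In KO OXPT cells the windows held 12 peaks with esiCT and 8 with esiHDAC4 in letter A, and 3 and 1 in letter B, while the lists went from 21875 to 18343 and from 8216 to 6084. In WT OXPT cells they held 14 and 13 in letter A and 5 and 8 in letter B. In WT UNT cells they held 17 and 9, and 16 and 17, by letter. In KO UNT cells they held 7 and 10, and 1 and 0. The members' totals moved in the direction of the lists in each of these pairs, which were given no test. The difference of the silencing response between the genotypes was -0.50 to 0.25 at the members with exact permutation p of 0.571 or more, and 0.595% of all genes had p under 0.05.

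SEs near the members were seen at BIRC3 only. With the window widened to 50 kb on either side, an SE was called in 4 libraries, WT esiCT UNT A, KO esiCT UNT A, KO esiHDAC4 OXPT A and WT esiHDAC4 OXPT B, against an SE in at least 1 library at 15.2% of all genes. The closest lay 47.5 kb before the gene, at 102252578 to 102270022 of chromosome 11 in KO esiCT UNT A, and overlapped no coding gene. An SE in the wider window was thus called in 2 WT and 2 KO, 2 UNT and 2 OXPT, and 2 esiCT and 2 esiHDAC4 libraries (exact permutation p = 1.0 in each comparison). The lists do not show whether the SEs had been filtered on a second mark.

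The other genes of the pathway were taken from a list of 73 subunits, inhibitors, kinases, adaptors, receptors and targets. Of these, 56 could be tested for peak number, and 52 were lower and 3 higher in KO, with a median difference of -0.52, equal to that of all genes. No gene passed after adjustment. Exact permutation p was under 0.05 at 13 of the 56, all lower in KO, beside 31.3% of all genes tested that were lower with such a p. The smallest exact permutation p belonged to PLAU, which encodes urokinase (-1.16, adjusted p = 0.0639), MAP3K14, which encodes the kinase NIK (-1.19, adjusted p = 0.0692), and TNFRSF1B, a TNF receptor (-0.87, adjusted p = 0.0727). For OXPT, 35 were lower and 18 higher, and the smallest exact permutation p were 0.0796 at TNIP1 (0.54), a partner of A20, 0.144 at TAB2 (0.40), an adaptor of the kinase TAK1, and 0.173 at TNFRSF1A (0.41). For esiHDAC4, 22 were lower and 31 higher, and the smallest exact permutation p were 0.166 at IRF1 (-0.51), a transcription factor of interferon responses, 0.171 at BIRC2 (-0.45) and 0.2 at TRAF1 (-0.45), a signalling adaptor. None of the 56 had p under 0.05 in either comparison.

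How often peaks were called differed between the roles, which was not tested. The 5 subunit genes, members included, had a peak in 9 to 12 libraries, with 9 at NFKB1, 12 at RELA and 11 at REL. The 18 chemokine and cytokine genes had one in 0 to 7 libraries, with a median of 3, and 5 of them, CXCL6, CXCL10, CCL2, CCL5 and IL6, had none. The 9 kinase genes had a median of 12 libraries. At the start site, a window of equal length for every gene, the medians were 9 libraries for subunits, 10 for kinases, 8 for adaptors and ubiquitin ligases, 6 for inhibitors, 2 for receptors, 2.5 for adhesion, survival and other targets and 0 for chemokines and cytokines, beside 2 for all protein-coding genes. SEs were called in the windows of other genes of the list, at the survival genes BCL2L1 and IER3 in 15 libraries and at the inhibitor family gene BCL3 in 8. The genes named in this paragraph, other than the members, were picked with their values in view.

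The genes whose peak numbers over the 16 libraries were most like those of a member were sought more than 1 Mb away from it, as a description. For NFKBIA these were NRIP3, TMEM9B (both r = 0.97) and PRKCZ (r = 0.95), for NFKB2 KAT8, CKLF and NXT1 (each r = 0.96), for RELB STMP1 (r = 0.98), ZNF816-ZNF321P and TCF20 (each r = 0.96), and for ICAM1 CD2BP2 (r = 0.94), ARNT2 (r = 0.91) and CEP250 (r = 0.90). The chemokine genes, called in 3 to 5 libraries, had exact matches, among them CTPS2, SYAP1 and TRPM6 for CXCL1, HEYL, NGDN and PIH1D2 for CXCL2, EOGT and TMX1 for CXCL3, and BDKRB2, BFSP2 and ENSG00000258691 for CXCL8. The closest gene after those of CXCL3 was CENPS (r = 0.88), and BIRC3 was too often called for this comparison. With so few values an exact match is easily reached, and all genes share the list lengths and groups of these libraries.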

How the data were processed

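H3K27ac ChIP-seq peak and SE lists of 16 HCT-116 libraries were used, 2 in each of 8 groups taken from the labels. The labels also list 4 input samples, which were not used. The submitters' processing notes and the study's methods give trimming with Trimmomatic 0.39, alignment to hg38 with Bowtie2 2.4.4, duplicate removal with SAMtools 1.18, peak calling per library with MACS2 2.2.7.1, and SE calling with ROSE, with no version given. In the deposited peak lists the authors give each peak a whole-number score that follows its q-value, the fold enrichment (a ratio of summit pileup to local background), the p-value and q-value as −log10 values, and the summit's offset. The deposited SE lists hold positions only, so SE positions have no measured level. The study's own test, on reads in peaks, had replicate and condition in its design, which is why labels were exchanged within letters here.

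Peaks and SEs on the autosomes, X and Y were assigned to protein-coding genes of GENCODE 44 that they overlapped, with 10 kb added on each side (start sites: 1 kb). A peak between neighbouring genes counts for each. The 10 genes, the pathway list and the tests were chosen with earlier results of these data known. Summit reads and background were solved from fold and −log10 p with a tolerance of 0.01 for peaks of −log10 p below 60, which succeeded for 99.5% to 100% of the peaks, and the solver and tests were tested on simulated data. Differences were tested with two-sided exact permutation tests over all 4900 arrangements of labels within letters, on presence (genes with a peak in 3 to 13 libraries), on log2(number + 1) (at least 3 libraries) and on the log2 highest summit fold (all 16 libraries, 484 genes, no member), with Benjamini-Hochberg adjustment over all genes and a threshold of 0.05. The pseudocount of 1 understates changes at genes with few peaks. Peaks of all libraries overlapping by at least 1 bp were merged into regions. Responses were compared between genotypes over 70 arrangements of 8 pairs. κB matches were searched in RefSeq promoter sequences. Named other pathway genes were, per comparison, the 3 with the smallest p for peak number, and genes alike were the 3 of highest Pearson's r. Analyses used Python 3.11.15, numpy 2.4.6, pandas 2.3.3 and scipy 1.17.1. The result for 1 marker gene is not reported here. Intervals for counting error were not attached to peak calls, since a list holds only values above its own threshold.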

Additional observations from a re-analysis of the deposited data

Results flagged for a closer look

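NFKB2 was the 1 result among the members singled out for a closer look, because the effect of OXPT on its peak number differed between the genotypes by 1.66 on the log2(number + 1) scale, at the smallest p of the exact permutation test over 8 pairs (0.0286, adjusted p = 0.583). WT libraries went from 4 to 3 and from 3 to 1 peaks in letter A and from 3 to 0 and from 4 to 1 in letter B, in esiCT and esiHDAC4 cells. The counts of the 4 WT libraries of letter A include the region in PSD. That region was split into 2 peaks in WT esiHDAC4 UNT A and held the only peak of WT esiHDAC4 OXPT A. KO libraries went from 1 to 3 and from 2 to 2 in letter A and from 0 to 1 and from 0 to 0 in letter B. The lists themselves became shorter in 4 of 4 WT pairs and longer in 3 of 4 KO pairs, and the part of this in the difference was not tested.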

How the results depend on the processing

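In the exact permutation tests no member passed the adjusted threshold for peak number, KO against WT, except NFKBIA (-1.17, adjusted p = 0.0382) and ICAM1 (-1.37, adjusted p = 0.0401) when the window was widened to 50 kb, under which 2272 genes passed, against 0 with 10 kb. Leaving out libraries singly or by letter gave 0 to 1192 genes for that count, with 807 without KO esiCT OXPT A and 1192 without WT esiCT OXPT B, and 0 otherwise. Of 211 alternative values of the members for this comparison 0 changed sign, and of 202 each for OXPT and for esiHDAC4, whose differences were small, 7 and 26 did. A change of sign could not be counted where the main difference was 0. That was so at NFKBIA, CXCL1 and CXCL3 for OXPT and at CXCL3 for esiHDAC4. The median genotype difference over genes was -0.12 with lists of equal length and -0.30 with numbers scaled to the list total, under which the adjusted p was 0.188 at RELB and 0.808 at BIRC3. For highest summit fold, which no member could enter, OXPT gave 4 genes, 0 with percentiles, 1 at start sites, 0 with no replicate block and 0 to 4 when libraries were left out, and KO gave 0, then 19 with percentiles and 1 at start sites. All counts for presence, SEs and regions were 0 under each alternative run. The exchange without letters (no replicate block) left the counts for peak number at 0, and it gave exact permutation p = 0.0761 for RELB. The letters are a block because the study's design used replicate, and same-letter libraries deviated together by more than 0.1 in 14 of 28 pairs of groups (r from -0.10 to 0.35), so they may not mark a shared batch. The alternative without the KO libraries of letter B was chosen after seeing the data and did not hold the letters as a block. List length limits all results: the lists show calls, not levels. A peak absent from KO letter B may lie below the fold needed there, 3.49 to 3.96 at low background.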

Other observations

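Of the 28 member regions, 5 lay within 1 kb of the start of a long non-coding RNA gene. The start-site region of CXCL2 lies so beside ENSG00000289241, and the region at the start of BIRC2 beside ENSG00000288833. In the ICAM1 window the regions centred at -10317, 15026 and 18982 bp from the start lie so beside ENSG00000267105, LIMASI and ICAM4-AS1. Acetylation has no strand, so it cannot be assigned to either gene there. The single KO library with a peak at any of the 4 member chemokine genes, KO esiCT OXPT A, had the longest KO list, 21875 peaks. Its CXCL1 peak lay at a separate position, 73869812 to 73870182 of chromosome 4, after the region called in 3 WT libraries, which was 73869190 to 73869770.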
